A study of Macaca mulatta with 13 samples.

Results

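Mitochondrial ribosomal protein genes were followed in lymphocytes and monocytes (peripheral blood mononuclear cells) of young rhesus macaques, all 4 months old. Total RNA of 13 samples was measured on 1 Affymetrix rhesus genome array each: 5 from maternally reared monkeys (maternal), 4 from peer-reared ones (peer) and 4 from surrogate-peer-reared ones (surrogate-peer). The design compares rearing conditions. The labels do not state that the samples come from different monkeys, so p-values measure the spread between these samples. All groups share the age, the cell preparation and the array type; the labels name no sex, batch or scan date and do not describe the rearing conditions further. A gene was a member when the platform annotation paired a probe set, the array's unit of measurement, with a single symbol made of MRPL or MRPS and a number. This gave 97 probe sets for 62 genes among 52707 probe sets and 14132 genes with 1 symbol, and each gene was read at its probe set with the highest mean over the 13 arrays.

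The mitochondrial ribosome makes the few membrane proteins that mitochondrial DNA encodes, all of them subunits of the respiratory chain and ATP synthase. Its RNA comes from mitochondrial DNA, but its proteins are encoded in the nucleus, made in the cytosol and imported. MRPL genes encode proteins of the large subunit, which joins amino acids, and MRPS genes those of the small subunit, which reads the messenger RNA. About as many descend from bacterial ribosomal proteins as are found only in mitochondrial ribosomes. In lymphocytes, mitochondrial protein synthesis is known to increase on activation.

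By position in the known structure, 42 members belonged to the large and 20 to the small subunit; MRPS30 and MRPS18A carry small-subunit names but sit in the large one. By origin, 30 have a bacterial homologue and 32 are specific to mitochondria. A gene was tested when its mean lay above 6.04, the median of all probe set means on the log2 scale, and 60 of 62 members passed. MRPL49 (group means of 5.97 for maternal, 5.88 for peer and 6.14 for surrogate-peer arrays) and MRPS6 (4.97, 4.94 and 4.90) stayed below and were not tested. The tested means ran from 6.93 to 10.75; since probe sets differ in brightness for the same amount of RNA, the values of different genes were not ranked against each other.

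Before any comparison, 1 array stood apart. Over all tested probe sets, the values of an array correlated on average between 0.952 and 0.971 with the other 12, but at 0.934 for maternal array 5. The cell markers of the preparation were present: the B cell antigen gene MS4A1 had a mean of 11.66, the monocyte genes CD14 and LYZ 11.38 and 12.86, and the cytotoxic granule gene NKG7 9.24. CD3D and CD3E had no probe set with 1 symbol. The platelet gene PPBP (13.85) and the haemoglobin gene HBB (11.47) were bright as well. The main counts, medians and calls against the maternal group are given below with and without maternal array 5. Where no array is said to be left out, values are from all 13 arrays.

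Most members were low or high on the same arrays. The median of the 60 tested members was 9.09, 8.95, 9.10, 9.05 and 8.56 on maternal arrays 1 to 5, 9.34, 9.01, 9.01 and 9.36 on peer arrays 1 to 4, and 9.18, 8.98, 8.999 and 9.01 on surrogate-peer arrays 1 to 4. Maternal array 5 was the lowest, peer arrays 4 and 1 the highest, and the 3 groups overlapped. On maternal array 5, 58 of 60 members (96.7%) lay below their own mean over the 13 arrays, against 61.5% of the 9657 tested genes with 1 symbol, and 47 members (78.3%, against 28.2%) had their lowest value there. On peer array 4, 58 of 60 members (96.7%, against 58.9%) lay above their own mean. The share above was 86.7% on peer array 1 and 85.0% on surrogate-peer array 1 (57.7% and 54.9% of all genes).

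**Figure D1:**
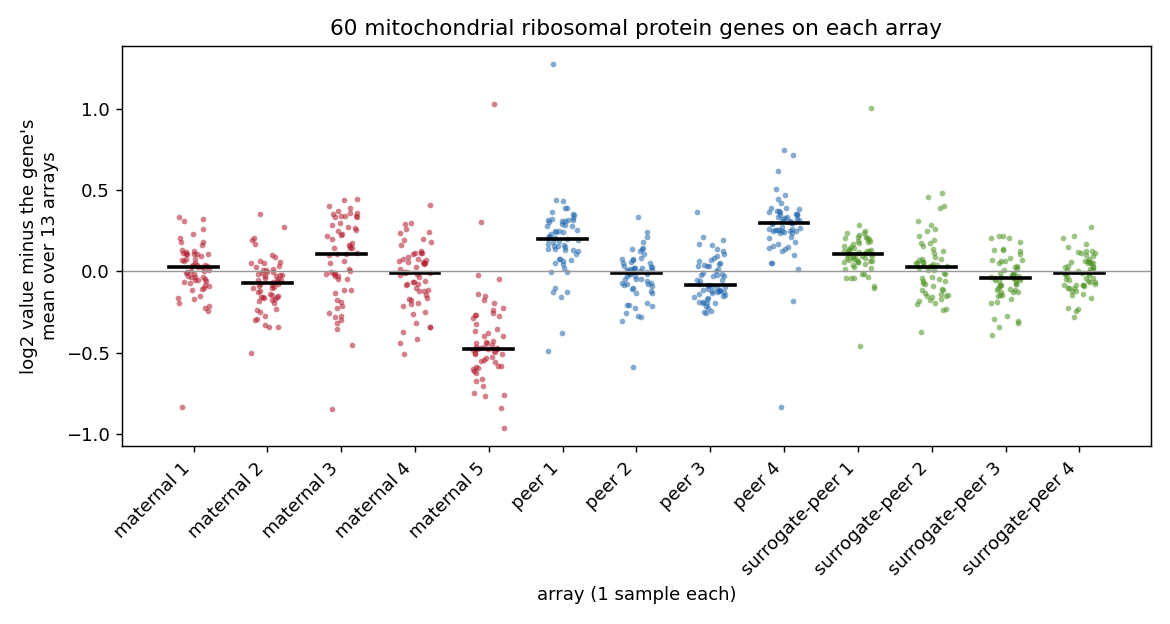
Each point is 1 of the 60 tested genes on 1 array, as its log2 value minus its own mean over the 13 arrays (vertical axis), with arrays along the horizontal axis and colours for the rearing groups; black bars are medians. The cloud of maternal array 5 is centred at -0.48 and that of peer array 4 at 0.29, while the medians of the other 11 arrays lie between -0.08 and 0.20.

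Both subunits showed the same order of arrays at the ends. The median deviation from a gene's own mean was -0.47 for the large and -0.48 for the small subunit on maternal array 5, and 0.30 and 0.26 on peer array 4. The same 2 genes, MRPL58 and MRPS16, were the exceptions on both arrays. MRPL58, a peptidyl-tRNA hydrolase that frees stalled ribosomes, read 7.49, 8.60, 7.48, 7.88 and 9.36 in maternal samples 1 to 5, 9.60, 7.74, 8.46 and 7.49 in peer samples and 9.33, 8.40, 8.31 and 8.10 in surrogate-peer samples. It was highest on peer array 1, maternal array 5 and surrogate-peer array 1, an order that followed no rearing group. Its residual SD of 0.79 was the largest of all members, whose median was 0.22. MRPS16, the homologue of bacterial S16, lay 0.30 above its mean on maternal array 5 and 0.19 below it on peer array 4 (deviation -0.19).

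With all arrays the spread was widest in the maternal group. Within a group, the median SD of a member was 0.27 (maternal), 0.20 (peer) and 0.14 (surrogate-peer), and the maternal SD was the largest of the 3 for 41 of 60 members (68.3%, against 62.3% of all tested genes with 1 symbol). Without maternal array 5 the maternal SD was the largest for 23 members (38.3%, against 52.4% of all genes), and its median of 0.18 was below the peer value. Over all genes that maternal median was 0.20, above the peer value of 0.14.

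The peer and surrogate-peer samples together (non-maternal, n = 8) were first compared with the maternal samples, with limma over all 26352 tested probe sets. MRPS18C, MRPL16 and MRPL32 rose, 3 of 60 members, and none fell. Over all tested probe sets 8.0% passed the threshold of an adjusted p of 0.05, 6.64% as higher and 1.35% as lower, so the share of members called was not above the background. At an unadjusted p under 0.05, 10 members were higher and 0 lower (16.7%, against 29.0% of all probe sets).

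MRPS18C, a homologue of bacterial S18 in the small subunit, read 9.003, 9.07, 8.92, 9.06 and 8.94 in maternal samples 1 to 5, 9.37, 9.23, 9.31 and 9.27 in peer samples, and 9.39, 9.61, 9.43 and 9.25 in surrogate-peer samples. All 8 non-maternal values lay above all 5 maternal ones, and maternal array 5 did not stand apart. The log2 fold change was 0.36 ± 0.07 (SE; limma adjusted p = 0.0211). Its residual SD, 0.10, was the smallest of the members. The call was lost without maternal array 4 or 5 (adjusted p = 0.0618 and 0.0527), with log2 fold changes of 0.38 and 0.35, and with the 3' to 5' ratio of control signal as a covariate (adjusted p = 0.0508). The other members with an MRPS18 symbol did not pass: MRPS18B gave 0.15 ± 0.10 (adjusted p = 0.347) and MRPS18A, of the large subunit, 0.03 ± 0.11 (adjusted p = 0.881).

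MRPL16, homologue of bacterial L16 near the tRNA sites of the large subunit, read 8.39, 8.32, 8.27, 8.26 and 7.86 in maternal samples, 8.79, 8.66, 8.47 and 8.81 in peer samples, and 8.57, 8.67, 8.68 and 8.47 in surrogate-peer samples. The groups did not overlap here either, and maternal sample 5 was well below the other 4. The log2 fold change was 0.42 ± 0.10 (SE; limma adjusted p = 0.0289), or 0.33 without maternal array 5 (adjusted p = 0.0621). Leaving out maternal array 4, peer array 1, 2 or 4, or surrogate-peer array 3 also ended the call (adjusted p from 0.0519 to 0.0741), with fold changes of 0.40 to 0.43, as did quantile normalization (0.33, adjusted p = 0.0502). MRPS18C and MRPL16 were the only members without overlap, 3.33% of 60, against 1.89% of all probe sets with the non-maternal arrays wholly above.

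MRPL32, homologue of bacterial L32, is cut by the mitochondrial m-AAA protease before it joins the large subunit. It read 8.97, 8.79, 8.61, 8.55 and 8.43 in maternal samples, 9.11, 8.94, 8.91 and 9.17 in peer samples, and 8.93, 8.98, 8.999 and 8.89 in surrogate-peer samples. Maternal sample 1 lay within the non-maternal range, and the other 4 maternal values lay below it. The log2 fold change was 0.32 ± 0.09 (SE; limma adjusted p = 0.0490), just inside the threshold. The call held without maternal array 1 (0.40, adjusted p = 0.00788) and was lost without any of the other 12 arrays (0.26 to 0.35, adjusted p from 0.0606 to 0.129). It was also lost with centring, quantile normalization, no filter, array weights, an intensity trend or the 3' to 5' ratio (adjusted p from 0.0591 to 0.150).

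**Figure D2:**
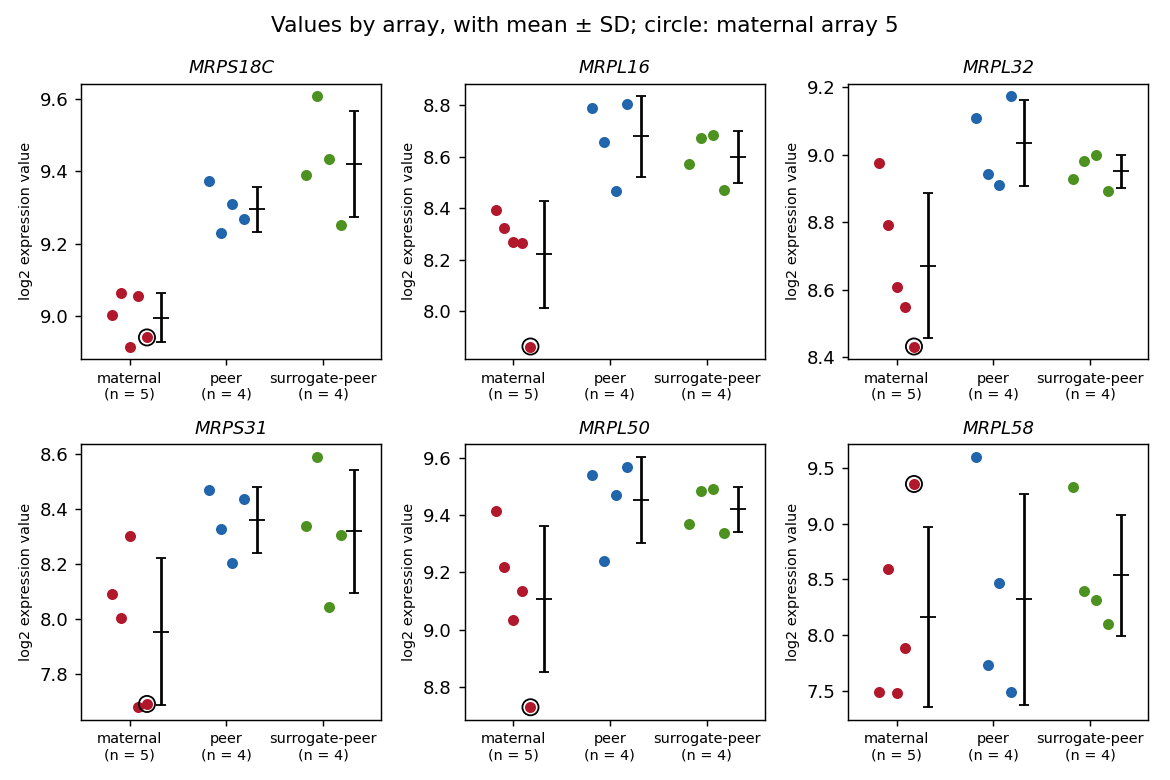
Log2 expression values of 6 genes (vertical axes, scaled per gene) by rearing group, 1 point per sample, with the mean ± SD of each group beside its points and maternal array 5 circled. The groups are apart for MRPS18C and MRPL16, maternal sample 1 reaches into the non-maternal range for MRPL32, MRPS31 and MRPL50 overlap, and MRPL58 spreads from about 7.48 to 9.60 within groups.

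The next members by p did not pass. MRPS31, a small-subunit protein specific to mitochondria, gave 0.39 ± 0.12 (adjusted p = 0.0633), and MRPL50, also specific to mitochondria but in the large subunit, 0.33 ± 0.10 (adjusted p = 0.0671). MRPS28 gave 0.41 ± 0.13 (adjusted p = 0.0742), MRPL33 0.28 ± 0.09 (adjusted p = 0.0753), MRPS22 0.29 ± 0.10 (adjusted p = 0.0813) and MRPL19 0.35 ± 0.12 (adjusted p = 0.0827). The lowest values were those of MRPL28 (-0.13 ± 0.10, adjusted p = 0.400) and of MRPL12 (-0.13 ± 0.16, adjusted p = 0.591), the stalk protein that brings translation factors to the ribosome and also binds the mitochondrial RNA polymerase. MRPL55, MRPL54 and MRPL4 followed with -0.07 each.

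As a list, 49 of 60 members (81.7%) had a fold change above 0, against 51.0% of all tested probe sets, and their median was 0.16 against 0.007. The second median depends on brightness. Among probe sets with means above the 75th percentile it was 0.09, against 0.16 for the 54 members there. Without maternal array 5 the count above 0 was 42 of 60 and the median 0.06, and the fold change was lower for 58 of 60 members; 10 members were then higher and 0 lower at an unadjusted p under 0.05 (23.7% of all probe sets passed in either direction). The median moved less with any other single array left out (0.12 to 0.21). Large and small subunit members gave like medians (0.16 and 0.17, with 34 of 41 and 15 of 19 above 0). So did members with a bacterial homologue (0.15) and those specific to mitochondria (0.17). The 3 genes that rose all belong to the first kind, 3 of 29 tested, against 0 of 31; whether the kinds differ was not tested. Setting the tested probe sets of every array to a median of 0 moved all fold changes of this comparison by the same amount. The members' median was then 0.10 and that of all probe sets -0.05, with 41 members above 0. The gap between the 2 medians is fixed under this step. On that scale 56.7% of the called probe sets were higher, in place of 83.1%.

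**Figure D3:**
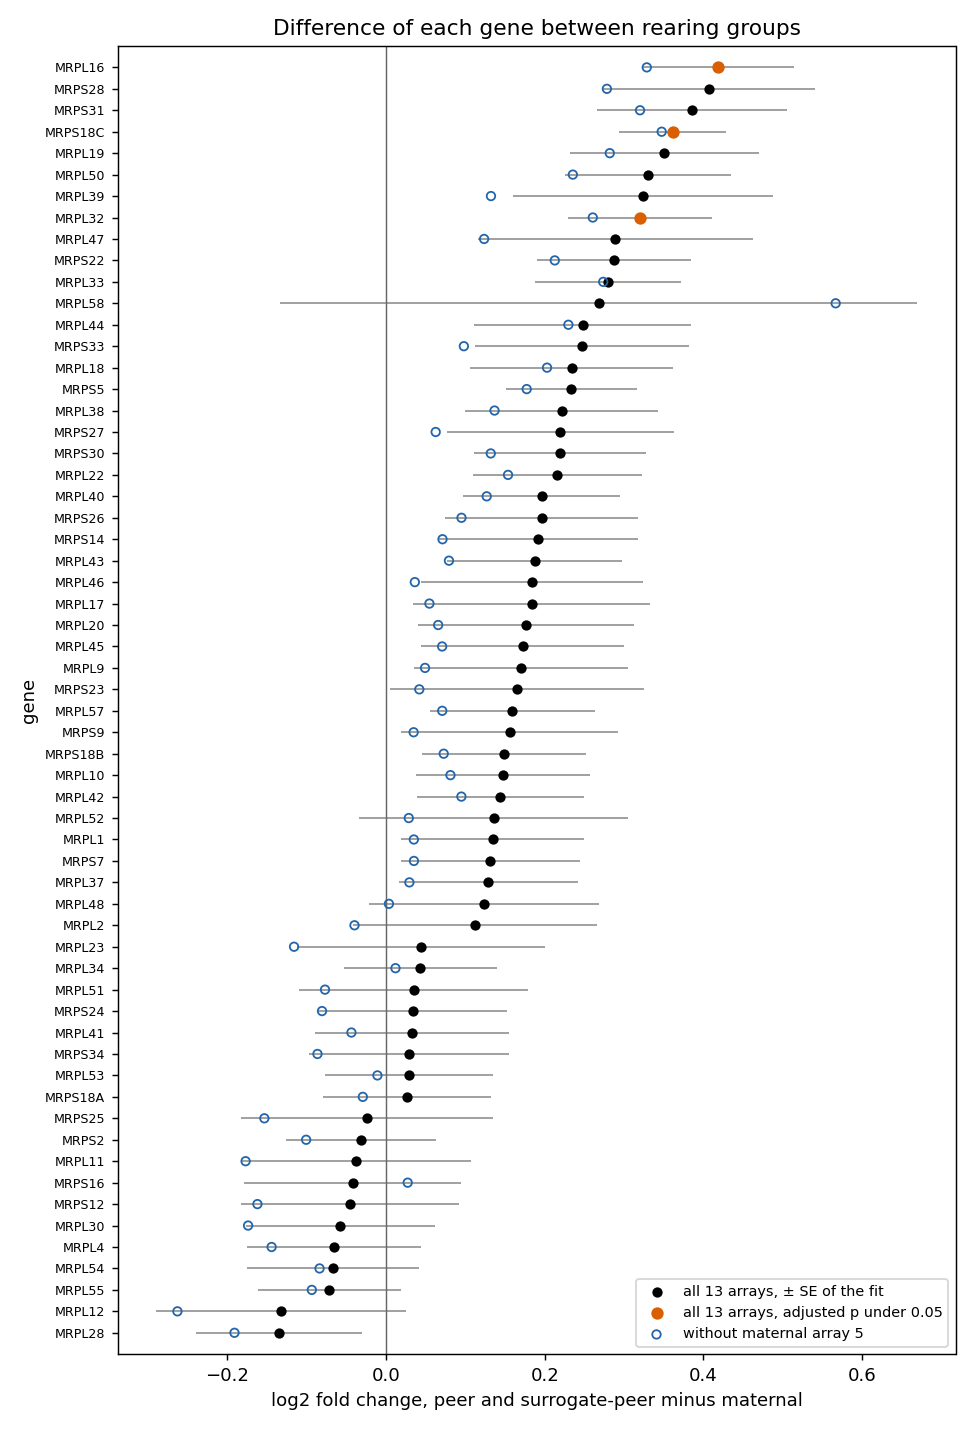
Log2 fold change of each tested gene, non-maternal minus maternal (horizontal axis), with all 13 arrays (filled points with the standard error; orange where the adjusted p was under 0.05) and without maternal array 5 (open circles). Open circles lie left of the filled points for 58 of 60 genes, the exceptions being MRPL58 and MRPS16.

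The number of members called depended on single arrays, as did the number over all probe sets. It was 3 of 2107 probe sets called with all arrays and 0 of 57 without maternal array 5. Without maternal array 4 it was 0 of 29, and without maternal array 1 it was 9 of 4830. It was 1 without peer array 1, 2 or 4 or surrogate-peer array 3 (of 311, 764, 891 and 497). In the other 6 cases it was 2 or 3.

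No member passed between peer and maternal samples (limma). The count was 0 of 60, with a smallest adjusted p of 0.0619, and 12 members at an unadjusted p under 0.05, all higher (20.0%, against 24.9% of all probe sets); 0.353% of all probe sets passed after adjustment. Leaving out maternal array 5, 9 members were higher and 1 lower at the unadjusted threshold (20.7% of all probe sets), and 0.0152% of all probe sets passed after adjustment. MRPS28 gave the largest value (0.49 ± 0.16, adjusted p = 0.0982). MRPL16 gave 0.46 ± 0.11 (adjusted p = 0.0619), MRPL32 0.36 ± 0.11 (adjusted p = 0.0809), MRPS18C 0.30 ± 0.08 (adjusted p = 0.0658) and MRPS5 0.28 ± 0.10 (adjusted p = 0.109). MRPL30 had the lowest value (-0.17 ± 0.14, adjusted p = 0.443), and its dimmer probe set differed from it in sign in the non-maternal comparison (0.11 against -0.06). The members' median was 0.21, with 50 of 60 above 0 (50.6% of all probe sets). It was 0.11 without maternal array 5, with 43 of 60 above 0, and 0.12 without peer array 4. Above the 75th percentile of means the median was 0.21 for 54 members and 0.10 for all probe sets. MRPS18C and MRPL16 had all peer above all maternal values (3.33% of members, against 5.63% of probe sets). Leaving out maternal array 1 gave 7 members among 3488 probe sets called.

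Surrogate-peer samples shared the maternal controls with the comparison above, so the values stand side by side and are no second line of evidence. No member and no probe set passed (0.00% of both), with 8 members higher and 0 lower at an unadjusted p under 0.05 (13.3%, against 20.3% of all probe sets). That count was, without maternal array 5, 3 higher and 1 lower (17.1% of all probe sets). MRPS18C gave 0.42 ± 0.08 (adjusted p = 0.0659), MRPL16 0.38 ± 0.11 (adjusted p = 0.118), MRPS31 0.36 ± 0.14, MRPL33 0.29 ± 0.11 and MRPL32 0.28 ± 0.11. MRPL12 (-0.24 ± 0.19), MRPS25 (-0.17 ± 0.19), MRPL28 (-0.16 ± 0.12), MRPL55 (-0.14 ± 0.11) and MRPL11 (-0.12 ± 0.17), a protein of the stalk base, were lowest. MRPS22 joined MRPS18C and MRPL16 as members whose 4 surrogate-peer values lay above every maternal value, 3 of 60 members, against 2.96% of probe sets. The surrogate-peer values of MRPS22 ran from 9.63 to 9.69 and the maternal ones from 9.08 to 9.62. The members' median was 0.10, with 45 of 60 above 0 (52.2% of all probe sets). Above the 75th percentile of means it was 0.10 for 54 members and 0.09 for all probe sets. Over the 60 members it was 0.01 without maternal array 5, with 31 of 60 above 0. Without maternal array 1, 4 members passed among 2097 probe sets.

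No member passed between surrogate-peer and peer samples by limma (0 of 60 at either the adjusted or the unadjusted threshold; 0.00% of all probe sets adjusted and 1.83% unadjusted). Fold changes were below 0 for 50 of 60 members (49.8% of all probe sets) and their median was -0.09. With the number in the sample title as a covariate the direction turned, with 54 of 60 above 0 and a median of 0.13. That number was 35 to 47 for peer and 9 to 32 for surrogate-peer samples. Without overlap, the adjusted value rests on the slope within groups. Single values ran from -0.34 ± 0.20 for MRPS23, with -0.28 ± 0.20 for MRPS25 and -0.23 ± 0.15 for MRPS26, to 0.23 ± 0.15 for MRPL30. Peer arrays 1 and 4 were the highest of the 8 here by their members' median (9.34 and 9.36). Without peer array 4 the median was -0.03, with 23 of 60 above 0. Peer arrays 2 and 3 (9.01 each) lay within the surrogate-peer range of 8.98 to 9.18.

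Probe sets of the same gene did not always give the same result. Of the 62 genes, 24 had more than 1 probe set, up to 5. For MRPL47 the dimmer probe set rose (0.47 ± 0.13, limma adjusted p = 0.0455) where the brighter gave 0.29 ± 0.17 (adjusted p = 0.278); without maternal array 5 the dimmer one gave 0.36 ± 0.11 (adjusted p = 0.101). For MRPS25 a probe set near the filter, with a mean of 6.55, rose (0.49 ± 0.10, adjusted p = 0.0238), while the brightest gave -0.02 ± 0.16 and the 2 others -0.05 and -0.02. That probe set gave 0.51 ± 0.11 without maternal array 5 (adjusted p = 0.0552), so neither of these calls held. MRPS26 gave 0.20 ± 0.12 at its brightest and -0.61 ± 0.24 at its other probe set (adjusted p = 0.115), a difference of sign that was noticed after the values were seen. MRPL48 gave 0.12 and -0.21, and MRPS5 0.23 and -0.04. Which transcripts each probe set detects was not examined here. MRPL16 and MRPL32 had only 1 probe set each, and the dimmer probe set of MRPS18C, with a mean of 4.99, was not tested.

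The other genes of mitochondrial protein synthesis were read from lists chosen with earlier results of these data known; over all probe sets 8.0% passed and 51.0% were above 0. Of 13 tested translation factors, 2 rose in the non-maternal samples, GFM1, the elongation factor that moves the ribosome along the message (0.43 ± 0.12, limma adjusted p = 0.0462), and MTRF1, a release factor (0.34 ± 0.09, adjusted p = 0.0476); 12 of 13 were above 0 and the median was 0.20. Among 21 assembly factors FASTKD2, an RNA-binding protein of large-subunit assembly, rose (0.50 ± 0.13, adjusted p = 0.0370) and the GTPase MTG2 fell (-0.33 ± 0.09, adjusted p = 0.0445). Of 14 mitochondrial aminoacyl-tRNA synthetases, those for methionine, MARS2 (1.01 ± 0.21, adjusted p = 0.0238), and arginine, RARS2 (0.49 ± 0.11, adjusted p = 0.0287), rose. Of 11 genes that transcribe, process or copy mitochondrial DNA, 3 rose: TEFM, a transcription elongation factor (0.53 ± 0.11, adjusted p = 0.0231), MTERF1 (0.44 ± 0.11, adjusted p = 0.0358) and TRMT10C, a subunit of mitochondrial RNase P (0.44 ± 0.08, adjusted p = 0.0212). Of 4 mitoribosomal proteins with other symbols, such as DAP3, none passed (0 also at an unadjusted p under 0.05), with 3 above 0. The medians of these lists were 0.14 for assembly, 0.09 for the synthetases, 0.31 for mitochondrial DNA and 0.12 for the other symbols. Without maternal array 5 none of these genes passed. The medians were then 0.14 for translation factors (10 of 13 above 0), 0.04 for assembly and -0.006 for the synthetases. They were 0.25 for mitochondrial DNA and 0.03 for the other symbols (2 of 4 above 0). In the peer and the surrogate-peer comparison with maternal samples none of the genes of these lists passed by limma. At an unadjusted p under 0.05 (24.9% of all probe sets for peer, 20.3% for surrogate-peer), 5 and 3 translation factors were higher, 6 and 3 assembly factors were higher with 1 and 1 lower, 3 and 3 synthetases were higher with 0 and 1 lower, 6 and 3 mitochondrial DNA genes were higher, and none of the other symbols passed.

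Cytosolic ribosomal proteins and the oxidative phosphorylation subunits were placed beside the members. The cytosolic list had 30 of 36 above 0, a median of 0.11 and 2 genes that rose, RPL15 and RPL32. The oxidative phosphorylation list had 37 of 57 above 0, a median of 0.08 and none called by limma (11 higher and 1 lower at an unadjusted p under 0.05). Of all probe sets 51.0% were above 0, 6.64% were called higher and 29.0% had an unadjusted p under 0.05. Without maternal array 5 neither list had a called gene, and the medians were 0.06 and 0.02. Then 24 of 36 and 31 of 57 were above 0 (50.2% of all probe sets). On maternal array 5 the median deviation from a gene's own mean was -0.48 for the members, -0.39 for oxidative phosphorylation, -0.29 for cytosolic ribosomal proteins, -0.57 for mitochondrial DNA expression and -0.10 for all tested genes with 1 symbol. On peer array 4 the values were 0.29, 0.17, 0.12, 0.26 and 0.04. Low values on maternal array 5 were thus shared with these lists, and differences between the lists were not tested.

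**Figure D4:**
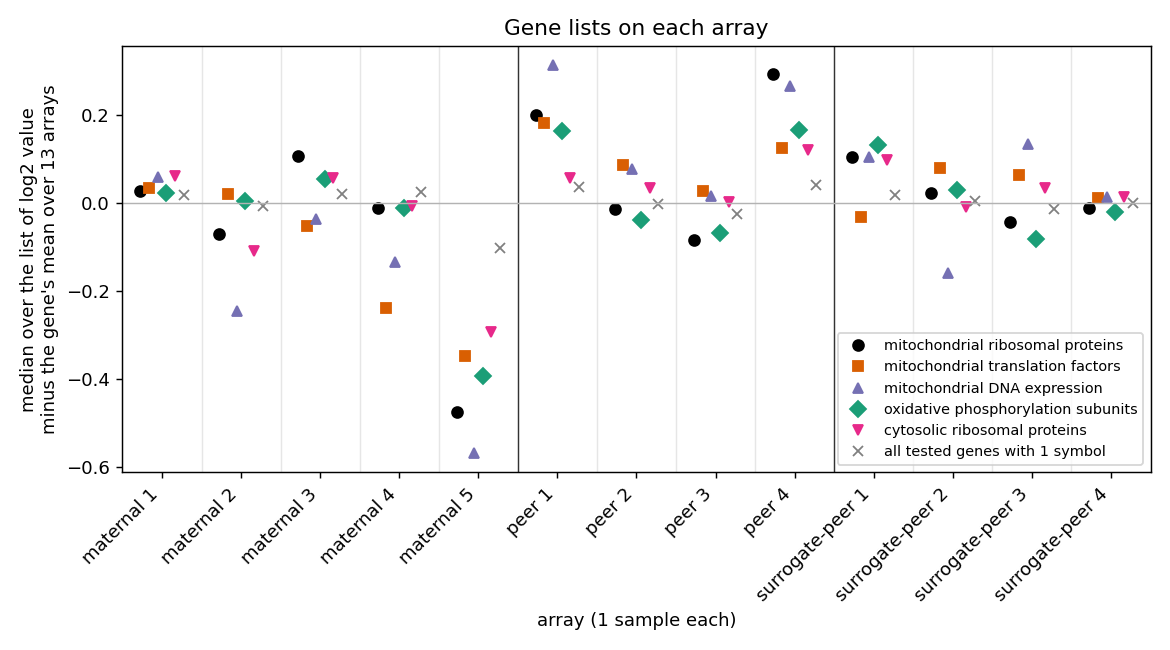
Median over each gene list of the log2 value minus the gene's own mean over the 13 arrays (vertical axis), for each array (horizontal axis; dark lines part the rearing groups). All 6 lists have their lowest value on maternal array 5, from -0.10 for all genes to -0.57 for mitochondrial DNA expression.

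Cell markers also varied between the arrays; in a mixed sample more cells of a type and more RNA per cell cannot be told apart. The 8 tested of 12 T cell markers had mean levels of 8.72 to 9.37 (maternal), 9.39 to 9.71 (peer) and 9.30 to 9.74 (surrogate-peer), and the 10 of 12 monocyte markers 10.56 to 11.78, 10.46 to 10.996 and 10.39 to 11.29. On maternal array 5 the median deviation was -0.78 for T cell and 0.81 for monocyte markers. On maternal array 2 the same lists gave -0.77 and 0.77. Platelet (0.70 and -0.44) and B cell markers (1.05 and 0.23) differed between arrays 2 and 5, and erythroid ones (1.10 and 1.02) were close. The members' median deviation was -0.07 on array 2 and -0.48 on array 5. Whether cell composition has a part in this was not tested. The 8 of 10 B cell markers ran from 9.43 to 10.34 in maternal, 9.08 to 9.86 in peer and 8.16 to 9.15 in surrogate-peer samples. In surrogate-peer samples all 8 were lower at an unadjusted limma p under 0.05, against maternal (20.3% of all probe sets) and against peer samples (1.83%). In peer against maternal samples 1 of 8 was lower (24.9%). The 10 of 12 NK and cytotoxic markers ran from 9.47 to 10.53 in maternal and 8.58 to 10.02 in non-maternal samples. Platelet markers (6 of 8) ran from 9.83 to 10.95 and 9.36 to 10.53, and proliferation markers (7 of 10) from 7.80 to 8.25 and 7.84 to 8.09. Basophil and dendritic cell markers (5 of 8) ran from 6.51 to 7.87 and 7.40 to 8.17, erythroid markers (3 of 8) from 10.86 to 11.66 and 10.36 to 11.81, and neutrophil markers (2 of 9) from 8.70 to 9.73 and 8.69 to 9.55. In the non-maternal samples 1 of 8 T cell and 2 of 5 basophil and dendritic cell markers rose, and 4 of 10 NK and cytotoxic, 1 of 10 monocyte and 1 of 8 B cell markers fell (limma, adjusted p under 0.05; 6.64% of all probe sets were called higher and 1.35% lower). By limma at an unadjusted p under 0.05 (29.0% of all probe sets), 6 of 8 T cell markers were higher. Lower were 7 of 10 NK and cytotoxic, 6 of 8 B cell and 4 of 10 monocyte markers. Median fold changes were 0.64, -0.94, -0.72 and -0.25. All 8 T cell markers were above 0, and all 10 NK and cytotoxic and all 8 B cell markers below. Basophil and dendritic cell markers gave 2 higher and 1 lower of 5. No marker passed the adjusted threshold without maternal array 5, where 57 probe sets did. The log2 ratio of 3' to 5' control signal of actin and GAPDH is a sign of RNA quality and labelling. It was 1.56 to 2.22 in maternal samples (1.59 on array 5), 1.38 to 1.74 in peer and 1.31 to 1.44 in surrogate-peer samples. All surrogate-peer ratios lay below all maternal ones, so a fit with the ratio rests on the slope within groups there. The part of these measures in the members' differences was not tested beyond the fits with a covariate given in the closing section.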

How the data were processed

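The 13 arrays carry log2 expression values that the authors deposited after RMA (robust multi-array average), per the submitters' processing notes. Its settings, and whether all arrays were normalized together, are not stated there. The median of an array over its 52865 probe sets was 6.048 to 6.060 in maternal and 5.995 to 6.043 in non-maternal samples. The SD was 2.10 to 2.12 and 2.13 to 2.16, so the groups overlapped in neither. The part of this in the members' differences was not tested beyond the centring and quantile normalization given in the closing section. Arrays have no reads to count; precision rests on how many there are.

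Of 52865 probe sets, 158 controls were left out, and the 26352 with a mean over the 13 arrays above the median of all such means entered the tests. limma 3.58.1 (R 4.3.3; lmFit and eBayes, 1 fit of all arrays) gave two-sided p-values with Benjamini-Hochberg adjustment over those probe sets, threshold 0.05; errors are the SE of that fit. The script was tested on simulated data. Symbols are those of the platform annotation, and all 62 members matched the RefSeq gene table by gene ID.

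Members, lists and tests were chosen with earlier results of these data known. Named members were, per comparison, up to 10 called in each direction by size or, where fewer than 5 passed, the 5 of smallest p; also the 3 highest and 3 lowest means, the 3 largest residual SDs and genes whose probe sets differ in call, and from other lists up to 5 called genes. MRPL19, MRPL48, MRPS16, MRPS18A, MRPS18B, MRPS22, DAP3 and the second probe set of MRPS26 were named after their values were seen.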

Additional observations from a re-analysis of the deposited data

Results flagged for a closer look

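Samples far from the rest of their own group were looked for in 29 named genes and in the members' median, 90 groups of 4 or 5 arrays in all; chance alone marks about 1 group in 20, and 8 were marked here. In the maternal group the members' median on array 5 was 8.56, against 8.95 to 9.10 on the other 4, and MRPL16 read 7.86 there, against 8.26 to 8.39. Maternal array 1 was high for MRPL54 (7.16, others 6.91 to 6.95) and for MRPL44, a protein with an RNase III-like fold (7.79, others 7.29 to 7.39). In the peer group MRPL28 was high on array 4 (8.35, others 7.97 to 7.99) and MRPL33 low on array 2 (10.11, others 10.29 to 10.32). In the surrogate-peer group MRPL28 was high on array 2 (8.13, others 7.97 to 7.995), and the members' median was high on array 1 (9.18, others 8.98 to 9.01).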

How the results depend on the processing

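No paired analysis was done because the labels name no unit shared between the rearing groups. Of 1127 values of named genes under 24 other settings, 1021 kept direction and side of the threshold, 31 lost it, 19 passed it and 56 changed sign; for each value below, the cause was not tested. The number of members that passed, non-maternal against maternal, was 1 with quantile normalization, 10 with the number in the sample title as a covariate and 0 without maternal arrays 2 and 5; for peer against maternal it was 1 with array weights, 4 with the title number and 4 with the 3' to 5' ratio. With that ratio 4 members passed in the non-maternal comparison, but of MRPS18C, MRPL16 and MRPL32 only MRPL16 kept its call; centring, array weights, an intensity trend and no filter each kept 2, MRPS18C and MRPL16. The members' median became 0.35 (ratio, non-maternal), 0.35 (title number, surrogate-peer against maternal), 0.36 (ratio, the same) and 0.13 (title number, surrogate-peer against peer, a change of sign). It also moved by over 1.5 times, against 0.16, to 0.31 (title number), 0.09 (quantile), 0.10 (centred), 0.11 (array weights) and 0.03 (without maternal arrays 2 and 5), non-maternal. For peer, against 0.21, it was 0.36 (ratio), 0.13 (quantile) and 0.0995 (without maternal arrays 2 and 5). For surrogate-peer, against 0.10, it was 0.04 (centred), 0.04 (quantile), 0.06 (array weights) and -0.0092 (without maternal arrays 2 and 5, 29 of 60 above 0), and between surrogate-peer and peer, against -0.09, it was -0.0070 (ratio). Surrogate-peer arrays did not overlap maternal ones in the ratio, nor peer ones in the title number. In title number only maternal array 5 of its group lay within the surrogate-peer range. Those fits, also for the single genes below, rest on the slope within groups. Within each comparison, centring moved all probe sets by the same amount. With 1 array left out, counts ran from 0 to 9, 0 to 7 and 0 to 4 in the non-maternal, peer and surrogate-peer comparisons with maternal arrays and were 0 between the last groups; medians ran from 0.06 to 0.21, 0.11 to 0.25, 0.01 to 0.15 and -0.14 to -0.03.

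Signs changed with the title number for MRPL1 (0.013), MRPL9 (0.077) and MRPS26 (0.14), surrogate-peer against peer, for MRPL11 (0.24) and MRPL12 (0.13), surrogate-peer, and for MRPL12 (0.078), MRPL4 (0.020) and MRPS25 (0.055), non-maternal. With the 3' to 5' ratio they changed, non-maternal, for MRPL12 (0.30), MRPL28 (0.021), MRPL4 (0.22), MRPL55 (0.034), MRPL58 (-0.077) and MRPS25 (0.32), for peer in MRPL28 (0.012), MRPL30 (0.00194), MRPL4 (0.17) and MRPS12 (0.20), and for surrogate-peer in MRPL11 (0.30), MRPL12 (0.29), MRPL28 (0.029) and MRPS25 (0.26). Non-maternal values of MRPL51 and MRPL53 turned to -0.027 and -0.033 (centred), -0.0027 and -0.00670 (quantile), -0.080 and -0.020 (array weights), and -0.19 and -0.0015 without maternal arrays 2 and 5, where MRPL47 (-0.040) and MRPL52 (-0.021) turned too. The mean of its probe sets gave MRPS25 0.10 (non-maternal) and 0.043 (surrogate-peer). Leaving out 1 array, non-maternal values ran from -0.14 to 0.013 (MRPL4), -0.077 to 0.15 (MRPL51), -0.027 to 0.077 (MRPL53), -0.11 to 0.00041 (MRPL54), -0.12 to 0.0013 (MRPL55) and -0.15 to 0.069 (MRPS25). Peer values ran from -0.13 to 0.0315 (MRPL4), -0.22 to 0.0039 (MRPL54) and -0.16 to 0.0375 (MRPS12), and MRPL54 between surrogate-peer and peer from -0.0069 to 0.22.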
